A study of Mus musculus with 6 samples.

Results

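Adcy7, Pde4a, Pde4b, Pde4d, Prkar1a, Creb1, Crem, Creb5, Crtc2 and Crtc3, 10 genes that make, degrade and read the second messenger cAMP, were examined in mouse macrophages 1 h after LPS. They were taken from the deposited gene count table by name, as the rows whose Ensembl identifier, without its version, carries one of these symbols in GENCODE M21, and they make up 10 of its 55335 rows. The cells were bone marrow-derived macrophages (BMDMs) of C57BL/6 mice, marked WT (wild type) in all 6 library names and grown for 6 d with medium conditioned by L929 cells, which supplies the macrophage growth factor CSF1. Of 6 libraries of total RNA, 3 came from BMDMs given PBS as the control and 3 from BMDMs given LPS, the endotoxin of Gram-negative bacteria, with no other difference named in the labels. The dose of LPS is not given in the sources used here. The labels number the libraries of each group 1 to 3 and call the numbers batches, without saying whether they mark separate mice or cultures, so p-values measure only the spread between these libraries.

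cAMP is made from ATP by adenylyl cyclases, which receptors coupled to the G protein Gs switch on, and is broken down by phosphodiesterases such as those of the PDE4 family. It frees the catalytic subunits of protein kinase A (PKA) from their regulatory subunits, and PKA phosphorylates the transcription factor CREB1 and its relatives, which bind the cAMP response element (CRE) and recruit the CRTC coactivators. In macrophages this pathway is known for restraining production of TNF and for raising that of IL-10, and inhibitors of PDE4 are used as anti-inflammatory drugs.

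Pde4b, Crem, Pde4d, Creb5 and Crtc2 rose with LPS. Pde4b rose 45.1-fold, Crem 13.0-fold, Pde4d 5.82-fold, Creb5 3.77-fold and Crtc2 2.47-fold. A gene was called changed at an adjusted p under 0.05 (edgeR's quasi-likelihood test, Benjamini-Hochberg adjusted over the 15687 genes tested) and an absolute log2 fold change above 1. All 10 genes passed the filter on low counts, 5 of them were called higher and 0 lower, and over all genes tested 10.5% were called higher, 10.4% lower and 20.9% in either direction. With no limit on size, 8 of the 10 had an adjusted p under 0.05 and all 8 were higher, against 67.7% of all genes in either direction and 32.9% in the higher direction. The median log2 fold change was 1.03 over the 10 genes and -0.01 over all genes tested. The 10 genes were chosen with earlier results of these data known. These comparisons with all genes thus describe them and do not test them as a group. Among all genes tested and ordered from the largest log2 rise, Pde4b stood at place 156, Crem at 336, Pde4d at 645, Creb5 at 870 and Crtc2 at 1302. In bulk RNA, fewer cells of a type and less RNA per cell cannot be told apart.

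The libraries held 37787611 to 41516330 counts. The TMM factor, which scales libraries for RNA composition, averaged 1.15 in PBS and 0.869 in LPS libraries. Scaling by library size alone lowered the median log2 fold change of all genes by 0.40, and the share of called genes that were higher was then 29.0% in place of 50.4%. All 8 macrophage markers on the list were tested, and their summed level was 29946 to 31229 normalized CPM (CPM computed on the library's total after this total was multiplied by its TMM factor) in PBS and 35886 to 36245 in LPS libraries. Cd14 was the 1 macrophage marker called higher. Of 6 dendritic cell markers 4 were called higher, with a summed level of 5.05 to 6.42 normalized CPM in PBS and 13.0 to 13.4 in LPS libraries, and the part of these cells in the results below was not tested. The neutrophil, T cell, B cell, fibroblast, erythroid and mast cell or basophil lists each held 0 called genes. Of these lists 5, 2, 2, 5, 0 and 3 genes were tested, in that order, so the erythroid list could hold no call. The highest sum of these lists in any library was 46.2 normalized CPM, for the neutrophil list. Of the 6 neutrophil markers 1, Ly6g, was at or under 3 counts in every library. In contrast, S100a9 had 17.4 to 26.7 normalized CPM and S100a8 had 10.3 to 15.2 over all libraries.

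**Figure D1:**
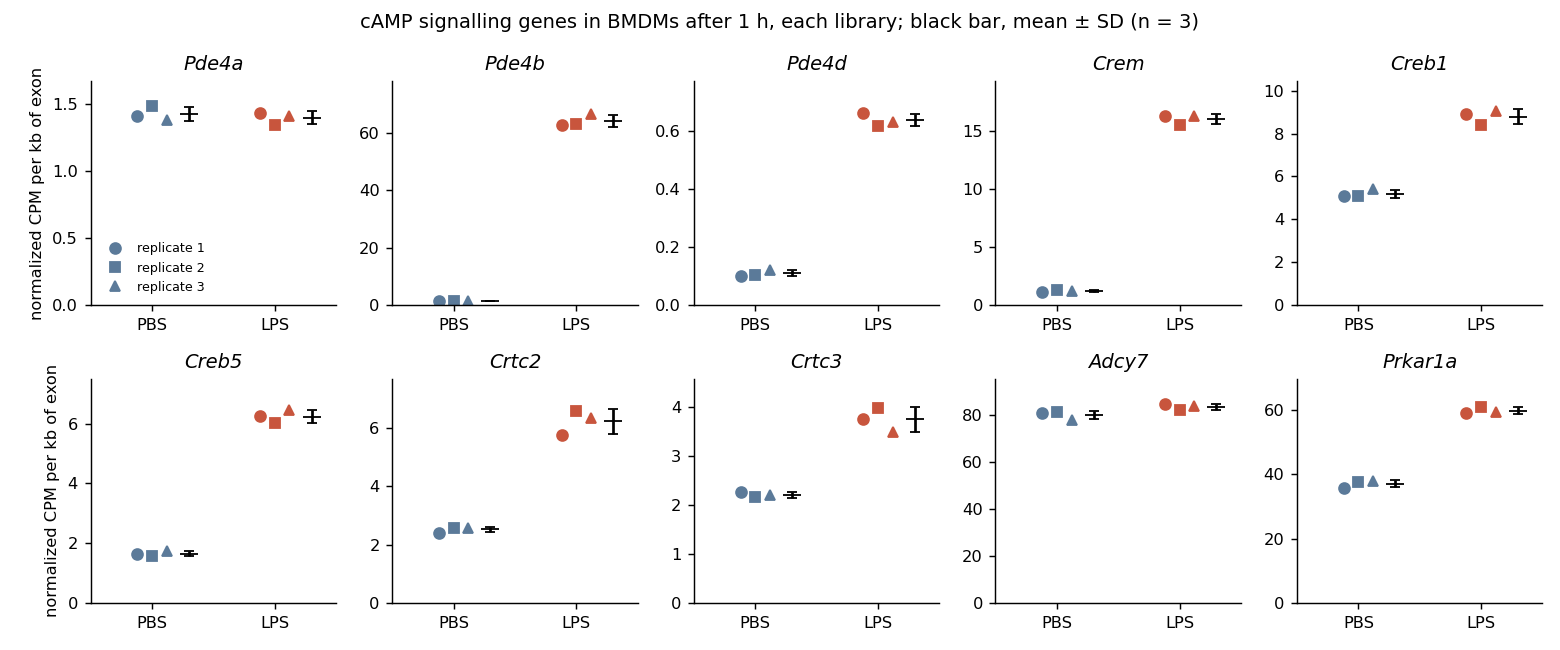
Normalized CPM per kb of exon of the 10 genes, with a linear axis from 0 for each gene, 1 symbol for each PBS (blue) and LPS (red) library and black bars for the mean ± SD of 3 libraries. With TMM scaling the groups overlap for Pde4a, and Pde4b goes from 1.42 to 64.1.

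**Figure D2:**
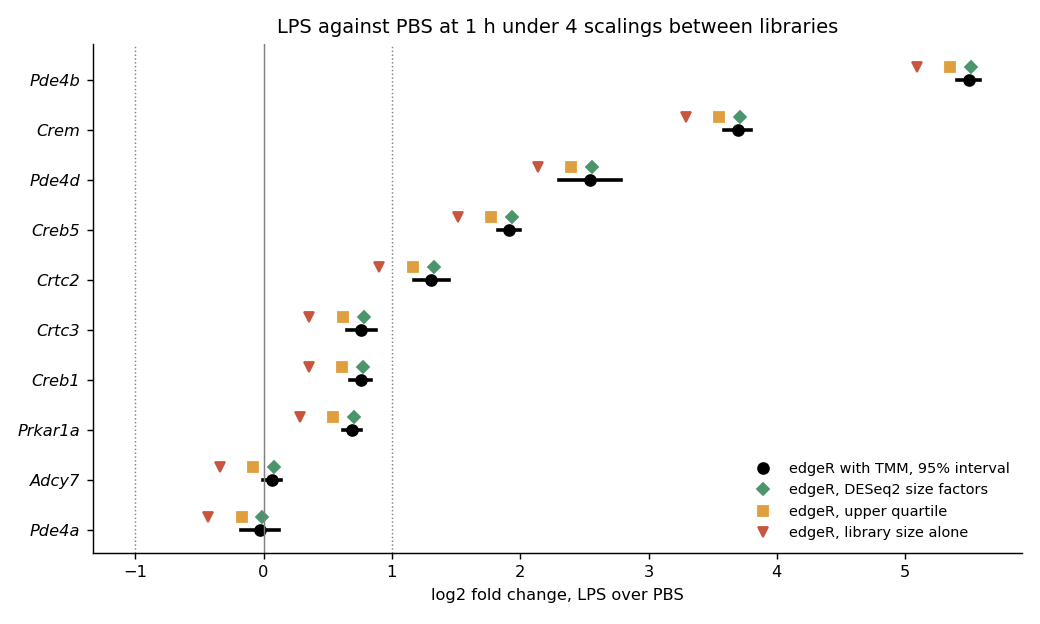
Log2 fold change of LPS over PBS for the 10 genes under TMM (black, with the 95% confidence interval as a bar), DESeq2 size factors (green), upper quartile (orange) and library size alone (red), with dotted lines at the fold criterion. Pde4b, Crem, Pde4d and Creb5 lie beyond it under each scaling, Crtc2 does not with library size alone (0.90), and Adcy7 changes sign.

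The first step of the pathway is the synthesis of cAMP. Adcy7 (chr8:88272403-88329962, GRCm38, plus strand) encodes adenylyl cyclase 7, a cyclase of blood and immune cells. Its level was 544, 547 and 524 normalized CPM in the PBS libraries and 570, 553 and 564 in the LPS libraries, so the LPS libraries lay slightly higher and the groups did not overlap. The means were 538.5 ± 12.6 (SD, n = 3) and 562.6 ± 8.68 (SD, n = 3), a log2 difference of 0.06 (SE 0.03, 95% confidence interval -0.01 to 0.13) that did not pass edgeR's test (adjusted p = 0.103). Its sign turned to -0.34 with library size alone (adjusted p = 4.71e-08 by edgeR) and to -0.08 under upper quartile scaling (adjusted p = 0.0413), while DESeq2's size factors gave 0.08 (adjusted p = 0.0369), so no direction was assigned to Adcy7. Per kb of exon it had the highest mean of the 10 genes in both groups, 80.0 ± 1.87 and 83.6 ± 1.29 normalized CPM per kb (SD, n = 3). Of the 10 adenylyl cyclase genes 5 were tested and 0 called changed, with a median log2 fold change of 0.19.

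The largest difference among the 10 genes was in a gene that degrades cAMP. Pde4b (chr4:102087543-102607259, plus strand) encodes phosphodiesterase 4B, the PDE4 subtype known to be induced by LPS in monocytes and macrophages. It had 702, 695 and 690 counts in the PBS libraries and 22208, 21775 and 23898 in the LPS libraries. Every LPS library was far above every PBS library. In normalized CPM the means were 15.0 ± 0.326 and 677 ± 22.0 (SD, n = 3), a log2 fold change of 5.49 (SE 0.04, 95% confidence interval 5.40 to 5.58, adjusted p = 7.00e-24 by edgeR). The gene spans 519717 bases and has 13 annotated transcripts with 13 start sites, which the counts per gene do not separate.

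Pde4d (chr13:108449948-109953461, plus strand) encodes another PDE4 subtype and spans 1503514 bases. It had 58, 57 and 67 counts in the PBS libraries and 266, 242 and 258 in the LPS libraries, a rise from a low level in all 3 of them. The means were 1.31 ± 0.124 and 7.64 ± 0.261 normalized CPM (SD, n = 3), with a log2 fold change of 2.54 (SE 0.11, adjusted p = 8.47e-13 by edgeR). Pde4a (chr9:21165714-21213248, plus strand), another subtype, had 10.8, 11.4 and 10.5 normalized CPM with PBS and 11.0, 10.3 and 10.8 with LPS. These ranges overlapped, and the log2 difference of -0.03 (SE 0.07, 95% confidence interval -0.18 to 0.12) did not pass edgeR's test (adjusted p = 0.743). With library size alone it was -0.43 (adjusted p = 2.61e-05 by edgeR), under a scaling that lowered the median of all genes by 0.40. Pde4c, the remaining subtype, had 0, 2 and 2 counts with PBS and 0, 0 and 1 with LPS and was at or under the floor of 3 counts in every library.

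The makeup of the family was compared within each library, as the share of each subtype in the summed PDE4 counts per kb of exon, a measure that no scaling between libraries can move. With PBS, Pde4b and Pde4a took 48.1% ± 0.388 and 48.1% ± 0.828 of the sum, and Pde4d took 3.69% ± 0.391 (SD, n = 3). With LPS, Pde4b took 96.9% ± 0.135, Pde4a 2.11% ± 0.0880 and Pde4d 0.963% ± 0.0508 (SD, n = 3). The equal shares of Pde4b and Pde4a with PBS depend on the length used, since coding length gave 58.3% and 36.9%, while with LPS it gave 97.6% and 1.34%. The groups did not overlap for these 3 subtypes, and the exact two-sided permutation test gave p = 0.1 for each, the smallest that 3 against 3 libraries allow. Permutation within the pairs of same-numbered libraries gave p = 0.25 for each, the smallest that 3 pairs allow. The share of Pde4d was thus lower with LPS although its level rose. The summed PDE4 level was 2.96 ± 0.0804 normalized CPM per kb with PBS and 66.1 ± 2.09 with LPS (SD, n = 3), a ratio of 22.3. Among all 16 cAMP phosphodiesterase genes, a wider sum chosen after the values were seen, Pde4b took 5.40% ± 0.176 with PBS and 63.8% ± 0.602 with LPS (SD, n = 3).

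**Figure D3:**
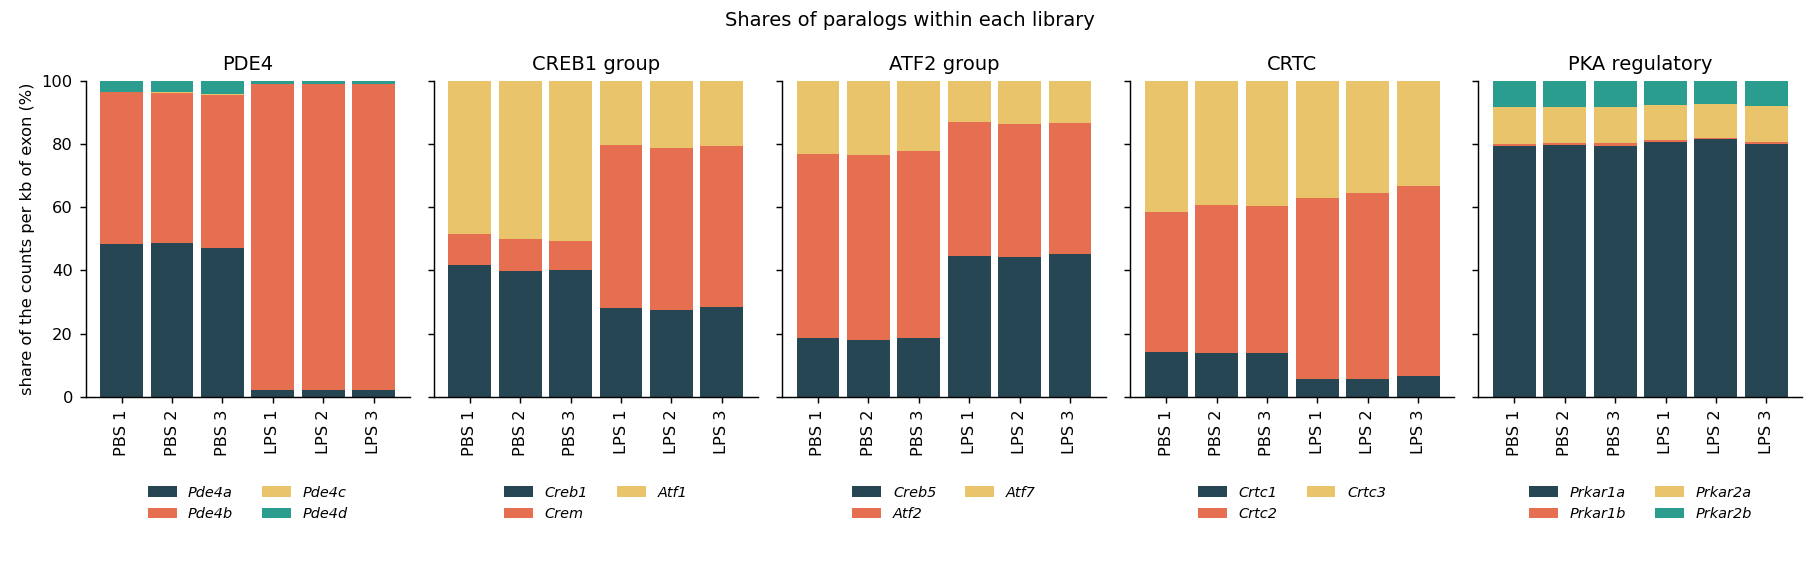
Share of each relative in the summed counts per kb of exon of its family, in percent, as stacked bars with 1 bar for each PBS and LPS library. Pde4b goes from 48.1% to 96.9% of PDE4, Crem from 9.68% to 51.3% of its family, Creb5 from 18.4% to 44.7% and Crtc2 from 45.9% to 58.7%, as means over 3 libraries.

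Promoter windows of RefSeq (GRCm38.p6, 250 bases before to 50 after a start site) were searched for the CRE (TGACGTCA) and its 5-base core (TGACG or CGTCA), the letters that CREB factors bind, and for the kappaB consensus of NF-kB, each on both strands. A full CRE also holds the core on each strand, so the counts of the 2 motifs overlap. Windows were used for 8 of the 10 genes, 21 windows in all, and none for Crem or Crtc2. The core was in a window of 5 of the 8 genes (Adcy7, Pde4a, Pde4b, Prkar1a and Creb5), and 23.0% of all 27025 genes with a window hold it. These genes have more windows each than genes in general, and counted by window the core was in 7 of 21, against 20.8% of all 32851 windows. The kappaB consensus was in a window of 1 of the 8, Pde4b, and in one of 5.14% of all genes. Stretches of 60 bases of the PDE4 windows are shown because Pde4b rose with LPS and Pde4a was not called. Capitals mark the core in the first and the last stretch and the kappaB match in the middle one, all on the plus strand of GRCm38.p6, read 5′ to 3′.
Pde4b, chr4:102421493-102421552, core 34 bases before the start site: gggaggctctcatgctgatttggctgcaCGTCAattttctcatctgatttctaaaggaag
Pde4b, chr4:102569907-102569966, kappaB match 128 bases before another start site: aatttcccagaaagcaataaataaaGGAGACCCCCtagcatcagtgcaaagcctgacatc
Pde4a, chr9:21184023-21184082, core 50 bases before the start site: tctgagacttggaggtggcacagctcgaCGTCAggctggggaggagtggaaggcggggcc
The core was thus near a start site of both genes, and Pde4b alone of the pair had the kappaB letters in these windows. The start site beside the kappaB match lay 148505 bases from that of the first Pde4b window. The counts do not show which start site was used. Pde4d was also called higher, and its window held none of these motifs. The annotation gives Pde4d 20 start sites, and starts outside that window were not searched. A match is a description of the letters and not of binding.

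cAMP is read by the regulatory subunits of PKA. Prkar1a (chr11:109649405-109669656, plus strand) encodes the type I alpha regulatory subunit, which holds the catalytic subunits inactive until cAMP binds. Its level was 155, 163 and 164 normalized CPM with PBS and 256, 264 and 256 with LPS, all 3 LPS libraries lying above the PBS libraries. The means were 160.6 ± 5.10 and 258.6 ± 4.64 (SD, n = 3). The log2 difference of 0.69 (SE 0.03, 95% confidence interval 0.62 to 0.76) had an adjusted p of 3.52e-12 in edgeR's test and was under the fold criterion. With library size alone it was 0.28 (adjusted p = 6.40e-07 by edgeR).

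The full CRE was found in windows of 2 of the 8 genes, Prkar1a and Creb5, and 2.03% of all 27025 genes with a window hold it. By window it was in 3 of 21, against 1.79% of all 32851 windows, but 2 of the 3 are overlapping windows of Prkar1a that hold the same site. Both sites are shown, with the CRE in capitals, on the plus strand of GRCm38.p6.
Prkar1a, chr11:109650874-109650933, CRE 49 bases before the start site: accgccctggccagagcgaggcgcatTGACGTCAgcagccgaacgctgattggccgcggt
Creb5, chr6:53287232-53287291, CRE 45 bases before the start site: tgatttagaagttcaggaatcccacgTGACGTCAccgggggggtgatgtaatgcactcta
Each palindrome lay within 60 bases before the start site of the window shown. In the overlapping window of Prkar1a the same site lay 39 bases after the start site, and the counts do not show which start was used. By the criteria above Creb5 was called higher and Prkar1a was not.

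Within the PKA regulatory subunits the makeup moved little. Prkar1a took 79.5% ± 0.202 of their summed counts per kb with PBS and 80.8% ± 0.764 with LPS (SD, n = 3). The ranges did not overlap, at p = 0.1 in the exact two-sided permutation test, the smallest possible. The type II subunit Prkar2a took 11.5% ± 0.338 and 11.1% ± 0.340 (SD, n = 3), and its ranges overlapped (exact p = 0.2). In level, Prkar2a differed by 0.61 on the log2 scale (SE 0.04, adjusted p = 3.35e-10 by edgeR), close to the 0.69 of Prkar1a. The catalytic subunits Prkaca and Prkacb differed by 0.03 (SE 0.04, adjusted p = 0.556 by edgeR) and 0.09 (SE 0.03, adjusted p = 0.0337). Both catalytic values turned negative under upper quartile scaling and under library size alone, so no direction was assigned to either. Of the 9 genes for PKA subunits and inhibitors 8 were tested and 0 called changed.

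Downstream of PKA stand the CREB factors. Creb1 (chr1:64532645-64604548, plus strand) encodes the founding CRE-binding activator. Its level was 69.8, 70.1 and 74.4 normalized CPM with PBS and 122, 115 and 124 with LPS, with no overlap. The log2 difference of 0.76 (SE 0.04, 95% confidence interval 0.67 to 0.84, adjusted p = 6.85e-12 by edgeR) was under the fold criterion, and it was 0.35 with library size alone (adjusted p = 3.60e-07).

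Crem (chr18:3266048-3337748, minus strand) encodes the cAMP response element modulator, whose transcripts give activators or repressors of CREB targets, among them the repressor ICER that starts from an internal promoter. It had 328, 342 and 345 counts with PBS and 3226, 2995 and 3277 with LPS. The 3 LPS libraries were close together and each was far above the PBS libraries. The means were 7.31 ± 0.370 and 94.7 ± 2.57 normalized CPM (SD, n = 3), and the log2 fold change was 3.70 (SE 0.05, 95% confidence interval 3.59 to 3.80, adjusted p = 1.06e-20 by edgeR). The annotation gives Crem 39 transcripts with 26 start sites, and the counts do not tell activator from repressor forms.

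Within the group of Creb1, Crem and Atf1, which bind the same element, the order changed. With PBS, Atf1 took 49.7% ± 1.03 of their summed counts per kb, Creb1 40.6% ± 1.04 and Crem 9.68% ± 0.345 (SD, n = 3). With LPS, Crem took 51.3% ± 0.253, Creb1 28.0% ± 0.391 and Atf1 20.7% ± 0.518 (SD, n = 3). No share overlapped between the groups, and each gave p = 0.1 in the exact two-sided permutation test. With coding length in place of exon length Crem took 6.77% and 38.3%, and Creb1 was then the largest of the 3 in both groups, so which gene leads with LPS depends on the length used. Atf1 itself differed by 0.03 on the log2 scale (SE 0.06, adjusted p = 0.712 by edgeR), and its sign turned under library size alone, under upper quartile scaling and without PBS replicate 1.

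Creb5 (chr6:53287270-53700376, plus strand) encodes a CRE-binding factor of the ATF2 group. It had 1964, 1791 and 1989 counts with PBS and 5251, 4908 and 5487 with LPS, each LPS library being above all PBS libraries. The means were 41.3 ± 1.73 and 156 ± 5.44 normalized CPM (SD, n = 3), and the log2 fold change was 1.92 (SE 0.04, 95% confidence interval 1.83 to 2.00, adjusted p = 9.42e-18 by edgeR). Its share of the summed counts per kb of Creb5, Atf2 and Atf7 was 18.4% ± 0.277 with PBS and 44.7% ± 0.464 with LPS (SD, n = 3, exact p = 0.1). With coding length it was 37.6% and 68.6%. The levels of its relatives, looked at after the values were seen, differed by 0.16 for Atf2 (SE 0.04, adjusted p = 3.01e-03 by edgeR) and by -0.15 for Atf7 (SE 0.05, adjusted p = 0.0165), with Atf2 at -0.25 under library size alone. Atf7 overlaps another gene row on the same strand, and its counts are uncertain.

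The CRTC coactivators enter the nucleus when cAMP blocks the salt-inducible kinases that hold them in the cytoplasm. Crtc2 (chr3:90254163-90264125, plus strand), known for its role in glucose production by the liver, had 469, 478 and 486 counts with PBS and 793, 882 and 883 with LPS. The groups did not overlap, with means of 10.3 ± 0.409 and 25.5 ± 1.73 normalized CPM (SD, n = 3). The log2 fold change was 1.31 (SE 0.06, adjusted p = 3.54e-12 by edgeR) and was 0.90 with library size alone, under the fold criterion. Crtc3 (chr7:80586627-80688877, minus strand) had 22.3, 21.2 and 21.6 normalized CPM with PBS and 37.0, 39.2 and 34.3 with LPS. Its groups did not overlap either, but its log2 difference of 0.76 (SE 0.05, adjusted p = 5.35e-10 by edgeR) was under the criterion, as was the 0.36 with library size alone. The remaining CRTC gene, Crtc1, differed by -0.26 (SE 0.08, adjusted p = 0.011 by edgeR).

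Of the summed counts per kb of the CRTC genes, Crtc2 took 45.9% ± 1.53 with PBS and 58.7% ± 1.60 with LPS, and Crtc1 took 13.9% ± 0.219 and 6.03% ± 0.473 (SD, n = 3). Crtc3 took 40.1% ± 1.32 and 35.2% ± 2.00 (SD, n = 3). The exact two-sided p was 0.1 for each of the 3. With coding length Crtc3 took 55.2% in both groups, so no direction was assigned to its share, while Crtc2 took 23.5% and 34.2%.

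The order of levels per kb of exon also changed. With PBS the order was Adcy7 (80.0 normalized CPM per kb), Prkar1a (37.2), Creb1 (5.20), Crtc2 (2.52), Crtc3 (2.20), Creb5 (1.65), Pde4a (1.42), Pde4b (1.42), Crem (1.24) and Pde4d (0.109). Pde4a and Pde4b were the 1 pair of neighbours whose ranges overlapped. With LPS it was Adcy7 (83.6), Pde4b (64.1), Prkar1a (59.8), Crem (16.1), Creb1 (8.78), Crtc2 (6.24), Creb5 (6.24), Crtc3 (3.74), Pde4a (1.40) and Pde4d (0.636), and Crtc2 and Creb5 overlapped. Pde4b thus stood at place 8 with PBS and place 2 with LPS, and Crem at places 9 and 4. These places depend on the length used: per kb of coding sequence, an order added after the data were seen, Pde4b stood at place 7 with PBS and place 1 with LPS, Crem at place 6 in both groups, and Adcy7 at places 1 and 3. The spread between replicates of a group, as SD over mean, ran from 1.54% for Adcy7 with LPS to 9.50% for Pde4d with PBS.

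Other gene rows overlap these genes, 10 in all, of which 4 were tested. Gm6225 lies partly within Crem and the other 9 rows lie within the span of their gene. Gm44080, a row of type TEC inside Creb5 on the same strand and outside its exons, had 40, 32 and 48 counts with PBS and 278, 284 and 315 with LPS, a log2 fold change of 3.34 (SE 0.13, adjusted p = 1.07e-13 by edgeR). It rose together with Creb5, and unspliced Creb5 RNA and a separate transcript cannot be told apart in these counts. Gm15880, an antisense row within Crtc3, had 2, 1 and 4 counts with PBS and 13, 12 and 17 with LPS (log2 fold change 2.98, SE 0.49, adjusted p = 3.18e-05 by edgeR), a rise that rests on few reads. Gm6225, opposite to Crem and sharing 472 exon bases with it, differed by 0.77 (SE 0.14, adjusted p = 1.14e-04 by edgeR) at 1.53 to 3.07 normalized CPM, far below Crem with LPS. Rps3a3, a pseudogene row within Pde4d, differed by 0.10 (SE 0.14, adjusted p = 0.562 by edgeR), which turned to -0.31 with library size alone and -0.04 under upper quartile scaling. The strand setting of the counting is not given in the sources used here, so reads of a gene and of an antisense row cannot be told apart. Of all stretches as long as 1 read in the transcripts of each gene, 3.80% were shared with Gm6225 for Crem, 0.254% with Gm25818 for Creb5 and 0 with any other gene for the other 8.

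The wider pathway was described with 11 lists, which hold 92 genes beside the 10. Of these 74 were tested, 21 were called higher and 2 lower, with a median log2 fold change of 0.29, beside 10.5% called higher and 10.4% lower over all genes tested. The CREB target list holds 12 of the 21. Without that list 61 genes were tested, 9 were called higher and 2 lower, with a median of 0.17. With no limit on size, 33 of these 61 were higher at an adjusted p under 0.05, against 32.9% of all genes tested. In the lower direction there were 15 of the 61, against 5467 of the 15687 genes tested. Of 16 cAMP phosphodiesterases 12 were tested, 5 were called higher and 1 lower. Besides Pde4b and Pde4d, Pde3b, which cGMP inhibits, rose from 11.9 ± 0.215 to 34.4 ± 0.647 normalized CPM (SD, n = 3; log2 fold change 1.53, SE 0.05, adjusted p = 1.04e-14 by edgeR). Pde2a, which cGMP stimulates, rose by 1.58 on the log2 scale (SE 0.34, adjusted p = 5.54e-04 by edgeR) from 0.209 normalized CPM, and it overlaps another gene row on the same strand. It did not pass edgeR's test for folds beyond the criterion (adjusted p = 0.104). Pde3a rose by 1.26 (SE 0.31, adjusted p = 1.52e-03 by edgeR) and Pde8b fell by 1.31 (SE 0.13, adjusted p = 9.60e-08), both named after their values were seen. The call on Pde3a was lost with library size alone (0.86), without LPS replicate 2 (1.00, just under the criterion) and in edgeR's test for folds beyond the criterion (adjusted p = 0.413).

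Upstream, 3 of 8 tested Gs-coupled receptors were called higher and 0 lower, out of 11 listed. The adenosine receptor Adora2b had 2.21, 1.79 and 1.76 normalized CPM with PBS and 81.1, 77.7 and 74.0 with LPS, a log2 fold change of 5.33 (SE 0.07, adjusted p = 1.02e-20 by edgeR). Adora2a, another adenosine receptor, rose by 5.01 (SE 0.15, adjusted p = 1.24e-15 by edgeR), and the prostaglandin E2 receptor Ptger4 by 2.08 (SE 0.04, adjusted p = 4.35e-19). The 4 tested genes for G protein alpha subunits held 0 calls.

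Among 12 tested A-kinase anchoring proteins, which tether PKA, Akap2 and Akap6 were called higher and Akap10 lower. With no limit on size, 10 of the 12 had an adjusted p under 0.05, 6 of them higher and 4 lower. Over all genes tested 67.7% had an adjusted p under 0.05, and 20.9% were called in either direction. Akap10 went from 113 ± 2.04 to 55.1 ± 2.21 normalized CPM (SD, n = 3; log2 fold change -1.04, SE 0.04, adjusted p = 4.09e-14 by edgeR), just past the criterion, and did not pass the test for folds beyond it (adjusted p = 0.332 by edgeR). Akap6 rose by 2.90 (SE 0.35, adjusted p = 7.59e-07 by edgeR) from 0.108 normalized CPM, and Akap2 by 2.93 (SE 0.29, adjusted p = 7.16e-08) from 0.188, both low levels. Akap2 overlaps Pakap on the same strand, and its counts are uncertain. Sik1, 1 of 3 salt-inducible kinases, rose by 1.38 (SE 0.06, adjusted p = 1.71e-13 by edgeR) and by 0.97 with library size alone, under the criterion. Of 13 CREB and ATF factors 2 were called, Crem and Creb5, and of 5 CREB coactivators 1, Crtc2. The exchange factor Rapgef3, the 1 tested of 2, was not called.

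Of 14 genes that textbooks give as CREB targets, 13 were tested, 12 were called higher and 0 lower, with a median log2 fold change of 7.33. Other factors also drive many of these genes, and the list was chosen with earlier results of these data known. Areg, a ligand of the EGF receptor, had 0 counts in every PBS library and 4724, 4935 and 4686 with LPS, and was at least 2210-fold higher against a floor of 3 counts per PBS library. The nuclear receptor Nr4a3 rose from 0.417 ± 0.0681 to 304 ± 5.59 normalized CPM (SD, n = 3; log2 fold change 9.50, adjusted p = 2.59e-24 by edgeR). The AP-1 factor Fosb rose by 9.30 (adjusted p = 3.15e-22 by edgeR) and the small GTPase Gem by 8.57 (adjusted p = 4.99e-24).

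**Figure D4:**
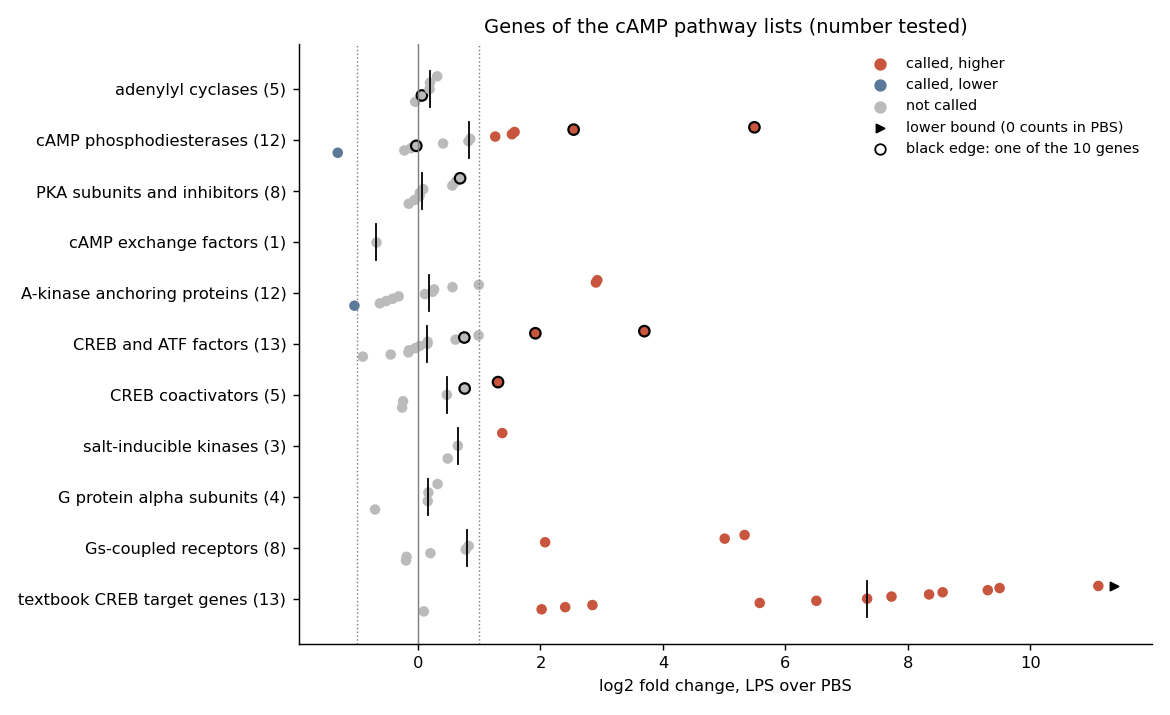
Log2 fold change of every tested gene of the 11 pathway lists, with the list median as a vertical line, calls in colour, the 10 genes edged in black and Areg at its lower bound. CREB targets, chosen with earlier results of these data known, have a median of 7.33. Adenylyl cyclases, PKA genes and G protein alpha subunits hold 0 calls, beside 20.9% of all genes tested.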

How the data were processed

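Per the labels, total RNA of 6 BMDM samples was sequenced from libraries made with a stranded total RNA globin kit. The authors aligned paired reads of 101 bases to GRCm38 with HISAT2 2.1.0 and deposited read counts per gene from featureCounts 2.0.0, without normalization. Per the submitters' processing notes FastQC 0.11.9 and SAMtools 1.17 were also used. Annotation release, strand setting and treatment of multimapping reads are not given in the sources used here. Of 55335 identifiers, 55154 matched GENCODE M21 without their version and 181 had no symbol. Depth was 37787611 to 41516330 counts per library.

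Here, genes passing filterByExpr (15687) were tested in R 4.3.3 with edgeR 4.0.16 (TMM scaling, quasi-likelihood test, Benjamini-Hochberg adjustment over all tested genes). Calls used the thresholds of the study, a log2 fold change beyond 1 in either direction with an adjusted p under 0.05. Standard errors and 95% intervals came from the F statistic. Floors of 3 counts cover counting error only. The 10 genes, the lists and the tests were chosen with earlier results of these data known. Named are the 10 genes, nearest relatives (Pde4c, Atf1, Crtc1, Prkar2a, Prkaca, Prkacb), tested rows overlapping the 10 genes and, per list, the called genes or, above 4, the 4 with the largest fold change. Exceptions named after their values were seen are Pde3a, Pde8b, Atf2, Atf7, Rapgef3 and the shares of all phosphodiesterases.

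Replicate numbers pair the libraries because the labels call them batches. Deviations from the group means of same-numbered libraries correlated at -0.01, 0.08 and 0.04 across genes. The main model has no replicate block, and one with it was fitted beside it. The exact tests on shares that gave p = 0.1 did not use the pairs either. Permutation within the pairs gave p = 0.25, the smallest possible, for the shares of Pde4b, Crem, Creb5, Crtc2 and Prkar1a. In counts simulated for 15687 genes, 15219 passed the filter. The edgeR steps recovered 200 of 200 genes shifted by 2 on the log2 scale. Of the unchanged genes 0 were called, and 10 had an adjusted p under 0.05 by edgeR. Genes below a minimum level in PBS were not shifted, so recovery at low levels was not tested. The shifts went in both directions and left RNA composition unchanged, so the simulation does not test the choice of scaling between libraries. Alternatives were DESeq2 1.42.0 (test, size factors), limma 3.58.1 (voom), library size alone, upper quartile scaling, other count filters, a test for folds beyond the threshold (glmTreat), omission of the 10 highest genes and of each library. Promoter windows of Crem were not used.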

Additional observations from a re-analysis of the deposited data

How the results depend on the processing

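Of the 10 genes, 5 were called higher under each alternative but library size alone, which gave 4, since Crtc2 fell to 0.90. Adcy7 turned to -0.34 with library size alone and -0.080 under upper quartile scaling, Prkaca to -0.37 and -0.11, Prkacb to -0.32 and -0.057, Atf1 to -0.38 and -0.12, Rps3a3 to -0.31 and -0.044, and Atf2 to -0.25 under library size only. These turns follow the lower median of all genes under those scalings. Leaving out each library in turn, Atf1 ranged from -0.028 (without PBS replicate 1) to 0.080 and Pde4a from -0.053 to 0.0028, with its sign turned without PBS replicate 2 (0.0028) and without LPS replicate 2 (9.4e-05). With coding length the share of Crtc3 differed by 0.0636 percentage points. A filter of 10 counts in every library called 2168 genes in all and 1 gene inside the spans of the 10, since fewer genes were tested. With the replicate block 5 of the 10 genes and 3276 genes in all were called, and it changed no call of the 10. Pde3a reached 0.86 with library size alone and 1.00, just under the criterion, without LPS replicate 2, and Pde2a, Pde3a and Akap10 did not pass the test against a log2 fold change of 1. Depth limits Pde4c, Gm15880 and the untested rows within the spans other than Gm25818. All 164 exon bases of Gm25818, which had 0 counts in every library, are shared with Creb5. Reads of Gm25818 can thus not be told apart from those of Creb5. Of the fold changes of the 10 genes under all alternatives, 155 kept direction and side of the threshold, 4 turned in sign and 1 passed under the threshold.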
